A study of Mus musculus with 11 samples.

Results

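The genes described here encode the machinery that stores transmitter in vesicles and releases it by exocytosis. They are 42 genes listed by name for their known function, and the list was drawn up with earlier results of these data known. They cover the SNARE proteins and the proteins that take them apart, the complexins, calcium sensors, vesicle membrane proteins, synapsins and synucleins, Rab GTPases with their effectors, and priming and active zone proteins. All 42 were measured, each by the array's transcript cluster that carries that gene symbol alone, among 30142 named genes in all. Vamp1 is also named on a cluster shared with E130112N10Rik, which was not used. The set was divided into genes found in both ganglion and adrenal medulla without a called difference and genes higher in either of them.

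Expression was measured in total RNA from C57B6 mice, male and female, 2 months old, and the labels name no treatment or transgene in any group. There were 4 arrays of adrenal medulla, the catecholamine-secreting core of the adrenal gland, 3 arrays of carotid body, the arterial chemoreceptor organ, and 4 arrays of superior cervical ganglion, a sympathetic ganglion of the neck. A carotid body sample was a pool from 10 mice and a sample of either other tissue a pool from 3 mice, so each n counts pools. The values are log2 signals as deposited, on which a difference of 1 is a 2-fold difference. A difference was called at a limma p under 0.05 after Benjamini-Hochberg adjustment over all 30142 genes together with a size of at least 2-fold, and every adjusted p below is of this kind. Values are given as mean ± SD over these n = 4, 3 and 4 arrays, or array by array in the order of the replicate numbers. The labels do not say how mice were divided among pools, so p-values measure only the spread between these samples.

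The level of unexpressed genes was gauged from 540 vomeronasal receptor and keratin-associated genes, families not known for expression here, and their 95th percentile served as a background bound. This bound was 5.36 for adrenal medulla, 5.41 for carotid body and 5.45 for ganglion, and 54.1% to 56.0% of all genes lay above it. Arrays of the same tissue correlated across genes with Pearson's r of 0.9944 to 0.9962 (adrenal medulla), 0.9854 to 0.9923 (carotid body) and 0.9895 to 0.9956 (ganglion). The tissues held unequal mixtures of cells. The mean of 9 sympathetic neuron markers was 8.33 to 8.81 on the adrenal medulla arrays, 10.1 to 11.9 on the carotid body arrays and 13.99 to 14.40 on the ganglion arrays, and all 9 lay above the bound in every tissue. The mean of 8 adrenal cortex markers was 15.8 to 16.1 on the adrenal medulla arrays against 5.35 to 5.73 and 5.25 to 5.71 in carotid body and ganglion, where Cyp11b1, Star, Hsd3b1, Mc2r and Nr5a1 were under the bound. The samples labelled adrenal medulla therefore also held RNA of cortex genes at a high level. The 8 chromaffin and granule markers averaged 17.4 to 17.7 in adrenal medulla and 12.2 to 13.1 in carotid body. In ganglion they averaged 12.7 to 13.2, with Pnmt under the bound. In carotid body the fibroblast markers averaged 13.8 to 14.0 and the smooth muscle and pericyte markers 13.2 to 13.6, above both other tissues, and in adrenal medulla the glial markers averaged 8.30 to 8.51 against 11.04 to 11.87 elsewhere. In such bulk samples, fewer cells of a type and less RNA per cell cannot be told apart, and the part of these cell type markers in the differences below was not tested.

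Regulated exocytosis joins the membrane of a vesicle to the plasma membrane when calcium enters the cell. A SNARE protein on the vesicle (a synaptobrevin) zippers together with syntaxin and SNAP-25 on the plasma membrane, synaptotagmins sense the calcium, complexins bind the assembled bundle, and the ATPase NSF with its SNAP adaptors then pulls the bundle apart for reuse. Rab GTPases and the priming proteins of the RIM, Munc13 and CAPS families bring vesicles to release sites and ready them. Sympathetic neurons use this machinery for small synaptic vesicles and for dense-core vesicles, chromaffin cells of the adrenal medulla for large dense-core granules of catecholamine, and the glomus cells of the carotid body for transmitter released onto sensory nerve endings.

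RefSeq promoter windows on GRCm38.p6, from 250 bases before to 50 bases after a transcript start, were at hand for 32 of the 42 genes. The stretches before the start of 6 of them are shown, Syn1 for its motif matches and the others for the split described below. The Napa stretch runs 1 base past the start, to the end of a marked match. Sv2c, Sncg and Napb had the largest ganglion excess over adrenal medulla, and Napa is the close relative of Napb without such an excess. Rab27a was the only gene of the set called higher in adrenal medulla. Syn1 held both a cyclic AMP response element and part of RE1, the element bound by the neuronal gene repressor REST. Capitals mark matches to the motifs searched, on either strand. They are the cyclic AMP response element (TGACGTCA), the left part of RE1 (TTCAGCACC) and the GC box (GGGCGG, or its complement CCGCCC). The TATA box (TATAAA) was also searched, and no 2 matches overlapped in the windows shown. The stretches lie at chr13:96132578-96132827 (minus strand) for Sv2c, chr14:34374670-34374919 (minus strand) for Sncg, chr2:148732421-148732670 (minus strand) for Napb, chr7:16098330-16098580 (plus strand) for Napa, chr9:73044560-73044809 (plus strand, the first of its windows) for Rab27a and chrX:20920919-20921168 (minus strand) for Syn1, each read 5′ to 3′ in the direction of the gene.
Sv2c: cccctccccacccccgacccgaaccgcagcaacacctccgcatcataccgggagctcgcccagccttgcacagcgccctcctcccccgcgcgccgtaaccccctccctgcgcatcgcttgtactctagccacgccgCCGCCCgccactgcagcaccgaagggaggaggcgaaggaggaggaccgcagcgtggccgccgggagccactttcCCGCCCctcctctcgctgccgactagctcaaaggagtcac
Sncg: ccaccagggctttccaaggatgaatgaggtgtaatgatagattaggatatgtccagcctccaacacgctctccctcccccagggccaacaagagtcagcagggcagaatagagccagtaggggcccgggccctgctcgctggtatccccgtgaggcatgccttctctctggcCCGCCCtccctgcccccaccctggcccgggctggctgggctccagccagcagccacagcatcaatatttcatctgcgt
Napb: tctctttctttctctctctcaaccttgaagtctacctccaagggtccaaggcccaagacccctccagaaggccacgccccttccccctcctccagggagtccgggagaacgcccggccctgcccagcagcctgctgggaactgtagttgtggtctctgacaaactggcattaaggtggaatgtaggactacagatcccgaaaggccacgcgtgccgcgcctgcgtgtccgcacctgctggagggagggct
Napa: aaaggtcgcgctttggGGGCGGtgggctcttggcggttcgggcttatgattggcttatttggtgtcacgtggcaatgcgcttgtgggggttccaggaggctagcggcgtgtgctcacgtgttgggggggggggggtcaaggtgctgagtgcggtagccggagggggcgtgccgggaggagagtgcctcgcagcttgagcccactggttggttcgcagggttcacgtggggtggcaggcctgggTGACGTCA
Rab27a: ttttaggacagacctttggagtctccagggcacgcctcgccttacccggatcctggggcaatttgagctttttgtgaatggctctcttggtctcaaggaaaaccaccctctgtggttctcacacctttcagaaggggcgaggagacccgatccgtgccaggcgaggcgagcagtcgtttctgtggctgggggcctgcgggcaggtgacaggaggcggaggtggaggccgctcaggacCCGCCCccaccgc
Syn1: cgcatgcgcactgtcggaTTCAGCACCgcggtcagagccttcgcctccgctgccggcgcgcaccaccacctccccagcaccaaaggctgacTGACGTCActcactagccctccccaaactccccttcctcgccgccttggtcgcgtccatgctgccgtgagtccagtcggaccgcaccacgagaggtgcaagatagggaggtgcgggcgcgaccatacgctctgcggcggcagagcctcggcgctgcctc
A GC box was found in a window of 26 of the 32 genes (81.2%), against 38.2% of 27025 genes with a window and 49.2% of 17492 protein-coding genes. Napb and Syn1 were among the 6 of the 32 without a GC box. Napa and Syn1 held a cyclic AMP response element (6.25% of the 32 genes, against 2.54% of protein-coding genes). The left part of RE1 was found in Syn1 and Unc13a (6.25%, against 0.48% of protein-coding genes), and no window of the set held the longer RE1 core of CAGCACC and GGACAG 2 bases apart, which 0.0515% of protein-coding genes held. TATA box letters were found in Sv2b and Rab3b (6.25%, against 14.8%). These are matches of letters in a short window and do not show that a factor binds there.

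The comparison of adrenal medulla with ganglion set a secretory tissue beside a tissue of neurons. Of the 42 genes, 29 were called higher in ganglion (69% of the set, against 7.5% of all genes) and 1 was called higher in adrenal medulla (5.72% of all genes). The median difference of the set, adrenal medulla minus ganglion, was -1.70, against -0.08 over all genes. Another 11 genes lay above the bound in both tissues with no called difference, and Sv2b lay under the bound in all 3 tissues. Dim genes are rarely called, and among the 17648 genes above the bound in any tissue 12.7% were called higher in ganglion and 9.75% in adrenal medulla.

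**Figure D1:**
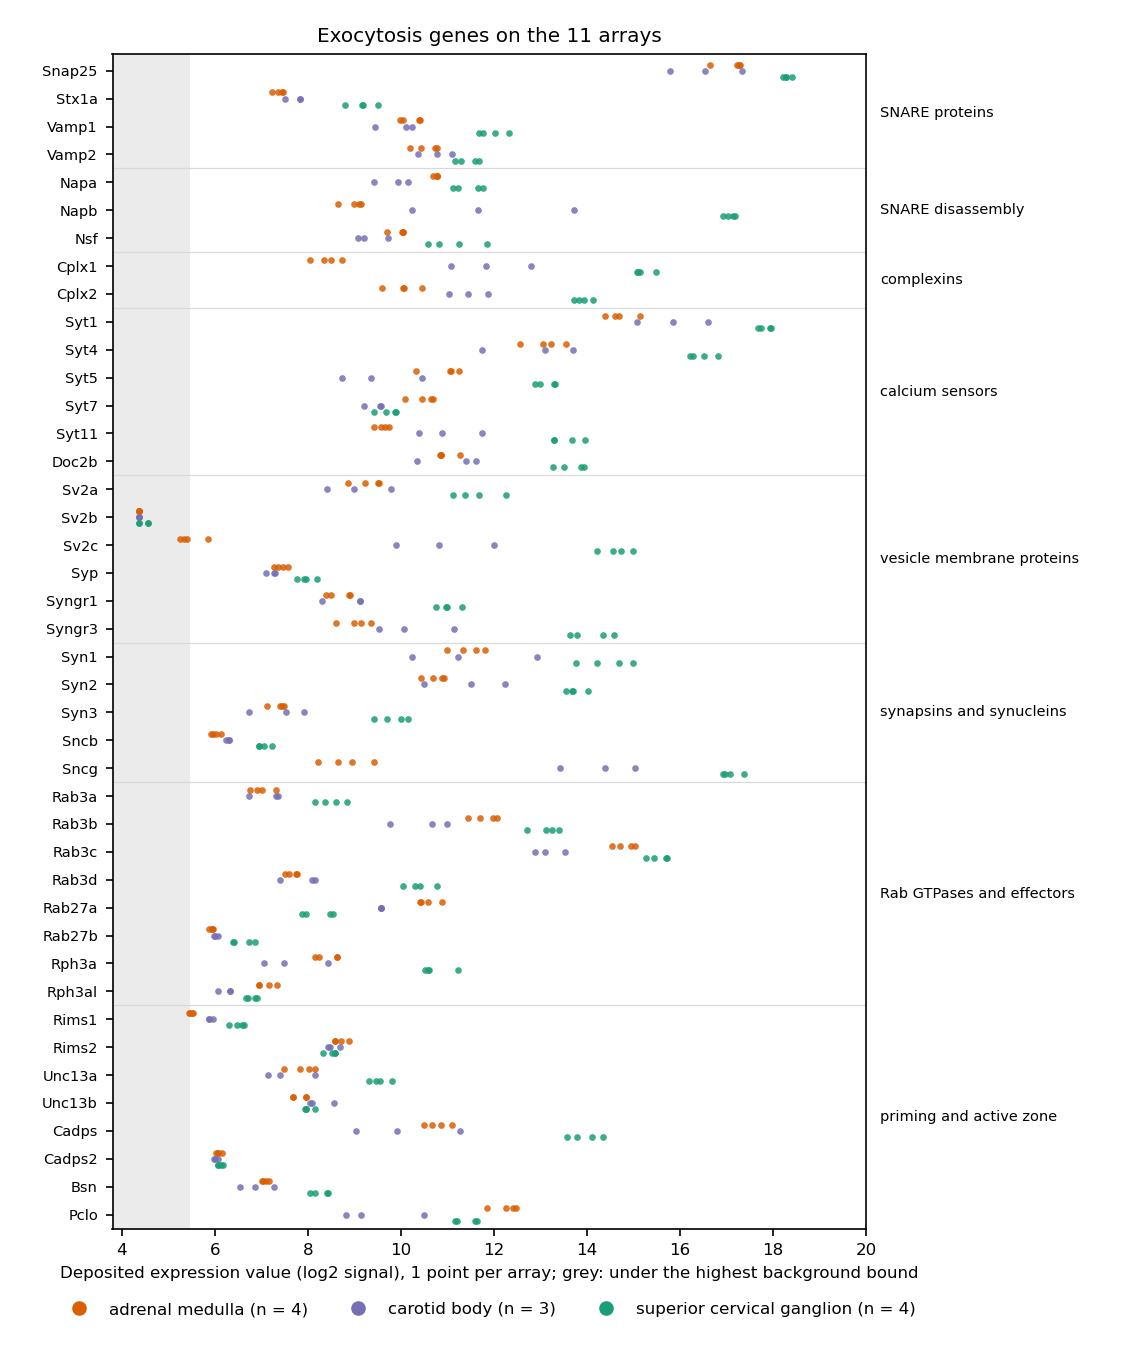
Deposited log2 signal (horizontal axis) of each of the 42 genes (rows, grouped by role) with 1 point per array: orange adrenal medulla (n = 4), purple carotid body (n = 3), green superior cervical ganglion (n = 4); grey marks values under the highest background bound. For 29 genes the green points were called higher than the orange ones, only Rab27a shows the reverse call, and the purple points of many genes are spread widely.

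No gene of the set could be described as belonging to the ganglion alone: of the 29 ganglion-higher genes, each had an adrenal medulla mean above the bound. The nearest was Sv2c, with 5.41, 5.35, 5.86 and 5.26 on the adrenal medulla arrays against a bound of 5.36, and without adrenal medulla replicate 3 its mean fell under the bound. The size of the ganglion excess ranged from 2-fold to at least 559-fold. It was at least 64-fold in 4 genes (Sv2c, Sncg, Napb and Cplx1), between 8-fold and 64-fold in 7 (Syngr3, Syt11, Cplx2, Syt4, Cadps, Syt1 and Syn2) and under 8-fold in the other 18, of which 10 were under 4-fold. These bands were drawn after the values were seen, and Syn2 at 8.01-fold and Syn1 at 7.86-fold lie on either side of the 8-fold limit. At the limit of a call, Rims1 (-1.004) and Sncb (-1.03) lay just inside and Vamp2 (-0.90) just outside. The 11 genes of both tissues were Vamp2, Napa, Syt7, Syp, Rab3c, Rab27b, Rph3al, Rims2, Unc13b, Cadps2 and Pclo. For 7 of them the adjusted p was under 0.05 with a difference under 2-fold, so an uncalled gene was not shown to be equal.

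**Figure D2:**
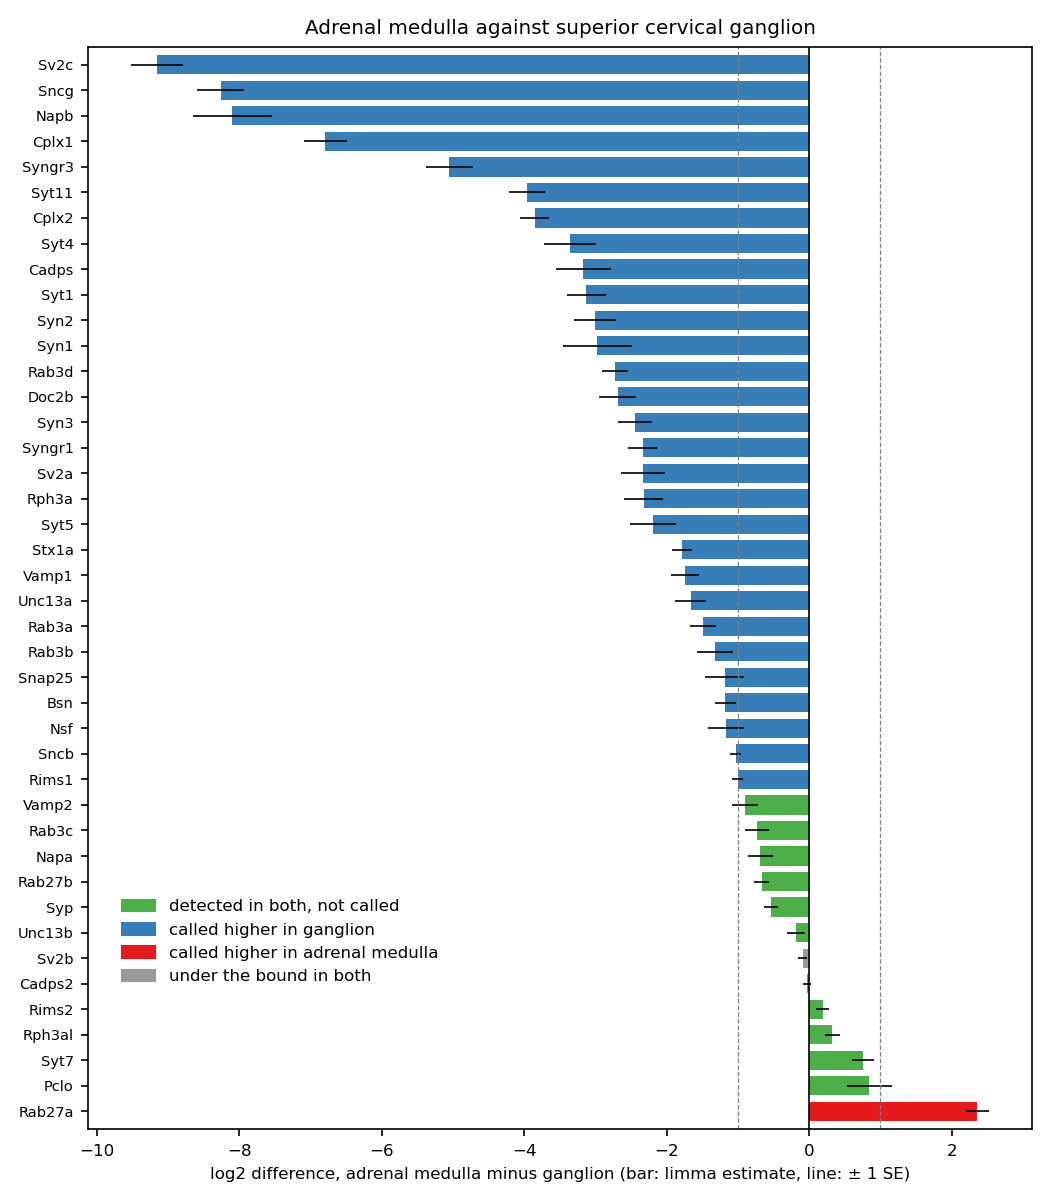
Difference of log2 signal, adrenal medulla minus superior cervical ganglion (horizontal axis), for the 42 genes (bars: limma estimate from 4 arrays of each tissue; lines: ± 1 SE; dashed lines: the 2-fold limit). Blue bars were called higher in ganglion (29 genes, from -1.004 in Rims1 to -9.15 in Sv2c), the red bar higher in adrenal medulla (Rab27a, 2.36), green bars were detected in both without a call (11 genes) and the grey bar is Sv2b, under the bound in both.

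Of the 4 SNARE proteins of the set, 3 were called higher in ganglion than in the adrenal medulla (7.5% of all genes) and 1 had no call. Snap25, which encodes a plasma membrane SNARE, stood at 17.22, 17.26, 17.30 and 16.64 on the 4 adrenal medulla arrays, 17.34, 15.79 and 16.53 on the 3 carotid body arrays and 18.22, 18.27, 18.41 and 18.27 on the 4 ganglion arrays. Every ganglion array was above every array of the other tissues, and the carotid body arrays covered the whole adrenal medulla range. Ganglion exceeded adrenal medulla 2.28-fold (log2 -1.19, SE 0.27, adjusted p = 0.00569) and carotid body 3.34-fold (-1.74, SE 0.29, adjusted p = 0.00081). Stx1a, the syntaxin partner of Snap25, averaged 7.37 ± 0.11 in adrenal medulla, 7.72 ± 0.19 in the carotid body and 9.16 ± 0.29 in the ganglion, 3.46-fold over adrenal medulla (adjusted p = 1.98e-06).

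The vesicle SNAREs differed from each other in their calls. Vamp1 (synaptobrevin 1) read 10.38, 10.04, 10.42 and 9.98 in adrenal medulla, 10.25, 9.44 and 10.10 in the carotid body and 12.02, 11.68, 11.77 and 12.31 in the ganglion. Its ganglion arrays were all above the rest, 3.34-fold over adrenal medulla (adjusted p = 3.88e-05) and 4.04-fold over carotid body (adjusted p = 3.01e-05). Vamp2 (synaptobrevin 2) read 10.78, 10.42, 10.73 and 10.20, then 10.78, 10.36 and 11.09, then 11.29, 11.17, 11.60 and 11.68. Here too no ganglion array fell among the others, but the excess over adrenal medulla was 1.87-fold and that over carotid body 1.61-fold, under the 2-fold limit (adjusted p = 0.00285 and 0.0206). The difference between the Vamp1 and Vamp2 differences was not tested.

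Among the genes that take SNARE bundles apart, the SNAP adaptors Napb and Napa had different calls. Napb, which encodes beta-SNAP, an adaptor known from brain, read 9.13, 8.99, 9.10 and 8.65 in adrenal medulla, 13.73, 10.24 and 11.65 in the carotid body and 17.19, 17.02, 16.93 and 17.14 in the ganglion. The 3 tissues did not overlap, and carotid body replicates 1 and 2 were further apart than in any other gene of the set. Ganglion exceeded adrenal medulla 274-fold (log2 -8.10, SE 0.55, adjusted p = 6.65e-07). Napa, which encodes the widely expressed alpha-SNAP, read 10.77, 10.77, 10.77 and 10.70 in adrenal medulla, 10.15, 9.41 and 9.94 in the carotid body and 11.76, 11.12, 11.22 and 11.65 in the ganglion. Its ganglion arrays were also highest, but by 1.61-fold over adrenal medulla (log2 -0.69, SE 0.17, adjusted p = 0.01), which is not a call. Nsf, the ATPase that both adaptors serve, averaged 9.95 ± 0.17, 9.34 ± 0.34 and 11.12 ± 0.55 in adrenal medulla, carotid body and ganglion, 2.25-fold higher in ganglion than in the adrenal medulla (adjusted p = 0.00345). Without ganglion replicate 4 the Nsf difference from adrenal medulla was -0.93 and no longer a call, as under repeated quantile normalization (-0.94).

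Both complexins were called higher in ganglion than in the adrenal medulla (7.5% of all genes), with carotid body between. Cplx1 read 8.73, 8.34, 8.50 and 8.05 in adrenal medulla, 12.80, 11.07 and 11.83 in the carotid body and 15.14, 15.07, 15.10 and 15.49 in the ganglion. The tissues formed 3 separate ranges, and ganglion stood 111-fold over adrenal medulla (log2 -6.79, SE 0.30, adjusted p = 2.39e-08). Cplx2 read 10.07, 10.05, 10.45 and 9.58, then 11.86, 11.03 and 11.44, then 13.93, 13.71, 13.83 and 14.12. Its tissues were in the same order without overlap, with a ganglion excess over adrenal medulla of 14.5-fold (log2 -3.86, SE 0.20, adjusted p = 9.07e-08).

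Of the 6 genes grouped as calcium sensors, 5 were called higher in ganglion than in the adrenal medulla (7.5% of all genes). The group includes Syt4 and Syt11, which lack a complete calcium binding site. Syt1, the fast calcium sensor of synaptic vesicles and chromaffin granules, read 14.38, 14.69, 15.13 and 14.59 in adrenal medulla, 16.60, 15.08 and 15.84 in the carotid body and 17.73, 17.68, 17.95 and 17.93 in the ganglion. All ganglion arrays were above the rest, 8.74-fold over adrenal medulla (log2 -3.13, SE 0.27, adjusted p = 4.8e-06), while carotid body replicate 2 lay within the adrenal medulla range. Syt7, a slower sensor of higher calcium affinity that acts in chromaffin cells, ran the other way, with 10.69, 10.46, 10.64 and 10.09 in adrenal medulla, 9.56, 9.20 and 9.55 in the carotid body and 9.89, 9.41, 9.68 and 9.87 in the ganglion. The adrenal medulla arrays of Syt7 were all above the others, by 1.69-fold over ganglion (log2 0.76, adjusted p = 0.00277, under the 2-fold limit) and by 2.05-fold over carotid body (-1.03 for carotid body minus adrenal medulla, SE 0.17, adjusted p = 0.00079). This Syt7 call against carotid body ended without adrenal medulla replicate 1 (-0.96) or 3 (-0.98) and without carotid body replicate 2 (-0.91), and under repeated quantile normalization (-0.98) or array weights (-0.99).

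The other synaptotagmins and Doc2b had ganglion values above all other arrays. Syt4 and Syt11, which lack a complete calcium binding site, averaged 13.10 ± 0.41 and 9.60 ± 0.14 in adrenal medulla against 16.45 ± 0.27 and 13.56 ± 0.33 in ganglion, an excess of 10.2-fold and 15.6-fold (adjusted p = 2.67e-05 and 4.3e-07). Syt5 averaged 10.93 ± 0.42 in adrenal medulla, 9.51 ± 0.87 in the carotid body and 13.12 ± 0.22 in the ganglion, 4.57-fold over adrenal medulla (adjusted p = 0.000297). Doc2b, a calcium-binding C2 domain protein linked to spontaneous release, averaged 10.96 ± 0.21, 11.12 ± 0.68 and 13.65 ± 0.31, 6.44-fold higher in ganglion than in the adrenal medulla (adjusted p = 1.03e-05).

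The vesicle glycoproteins of the SV2 family, which are also entry receptors of botulinum neurotoxins, split into separate patterns. Sv2c read 5.41, 5.35, 5.86 and 5.26 in adrenal medulla, 11.99, 9.88 and 10.81 in the carotid body and 14.72, 14.22, 14.56 and 14.99 in the ganglion. Adrenal medulla was at the background, carotid body well above it and ganglion higher again, with no overlap. Ganglion exceeded adrenal medulla at least 559-fold and carotid body exceeded it at least 42.2-fold (log2 -9.15 for adrenal medulla minus ganglion, SE 0.37, adjusted p = 1.16e-08; adjusted p = 2.16e-06 for carotid body). Such a fold is a lower limit because adrenal medulla arrays under the bound were set to it. Sv2a read 9.50, 9.23, 9.52 and 8.85 in adrenal medulla, 9.78, 8.40 and 8.99 in the carotid body and 11.68, 11.11, 11.38 and 12.25 in the ganglion. Adrenal medulla and carotid body overlapped and ganglion stood above both, 5.03-fold over adrenal medulla (adjusted p = 0.000127). Sv2b was at 4.38 to 4.57 on all 11 arrays, under the bound, with the same value on 9 of them.

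The tetraspan vesicle proteins ranged from no call to one of the larger excesses. Syp (synaptophysin), a common marker of synaptic vesicles, read 7.46, 7.36, 7.57 and 7.27 in adrenal medulla, 7.30, 7.11 and 7.27 in the carotid body and 7.91, 7.75, 7.97 and 8.19 in the ganglion. Ganglion arrays were above the others by 1.45-fold and 1.66-fold, under the limit of a call (adjusted p = 0.00166 and 0.000368). Syngr3, a neuronal synaptogyrin, read 9.35, 8.99, 9.15 and 8.61, then 11.15, 9.54 and 10.07, then 14.33, 13.79, 13.63 and 14.57. Its tissues did not overlap, and ganglion exceeded adrenal medulla 33.3-fold (log2 -5.06, SE 0.33, adjusted p = 4.62e-07). Syngr1 ranged over 8.38 to 8.90, 8.31 to 9.13 and 10.75 to 11.31 on the arrays of adrenal medulla, carotid body and ganglion, and was 5.06-fold higher in ganglion than in the adrenal medulla (adjusted p = 4.81e-06).

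All 5 synapsins and synucleins of the set were called higher in ganglion than in the adrenal medulla (7.5% of all genes). Synapsins tether vesicles in the reserve pool. Syn1 read 11.33, 11.61, 11.81 and 10.99 in adrenal medulla, 12.91, 10.25 and 11.22 in the carotid body and 14.69, 13.76, 14.22 and 14.98 in the ganglion. Carotid body replicate 2 was below every adrenal medulla array and replicate 1 above every one, while ganglion was above all, 7.86-fold over adrenal medulla (log2 -2.97, SE 0.48, adjusted p = 0.000571). Syn2 averaged 10.73 ± 0.22, 11.41 ± 0.87 and 13.74 ± 0.19 in the same order of tissues, and Syn3 7.36 ± 0.16, 7.40 ± 0.61 and 9.81 ± 0.33, with a ganglion excess over adrenal medulla of 8.01-fold and 5.47-fold (adjusted p = 1.22e-05 and 1.15e-05).

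Sncg, the synuclein known from peripheral neurons, read 9.42, 8.65, 8.95 and 8.23 in adrenal medulla, 15.03, 13.42 and 14.38 in the carotid body and 17.06, 17.36, 16.93 and 16.95 in the ganglion. Each tissue kept to a range of its own, and carotid body lay nearer to ganglion than to adrenal medulla. The ganglion excess over adrenal medulla was 307-fold (log2 -8.26, SE 0.33, adjusted p = 1.05e-08), and carotid body stood 44.1-fold over adrenal medulla and 6.97-fold below ganglion (adjusted p = 9.3e-07 and 9.92e-05). Sncb (beta-synuclein) averaged 6.01 ± 0.10, 6.28 ± 0.03 and 7.05 ± 0.14 in adrenal medulla, carotid body and ganglion, against bounds of 5.36, 5.41 and 5.45. Its call between ganglion and adrenal medulla (log2 -1.03, adjusted p = 2.14e-06) ended without ganglion replicate 1 (-0.97) and under median centring, repeated quantile normalization and array weights (-0.95, -0.95 and -0.99).

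The Rab GTPases held the only gene of the set called higher in adrenal medulla than in ganglion. Rab27a, a GTPase of secretory granules and of melanosomes, read 10.40, 10.57, 10.89 and 10.43 in adrenal medulla, 9.57, 9.57 and 9.57 in the carotid body and 8.48, 7.88, 7.95 and 8.55 in the ganglion. The tissues did not overlap, and the 3 carotid body arrays carried an identical value, so their spread gives no independent error. Adrenal medulla exceeded ganglion 5.14-fold (log2 2.36, SE 0.16, adjusted p = 7.87e-07), and carotid body exceeded ganglion 2.57-fold (1.36, SE 0.18, adjusted p = 0.000125). Its relative Rab27b was at 5.93 ± 0.03, 6.02 ± 0.04 and 6.60 ± 0.23 in adrenal medulla, carotid body and ganglion, with ganglion 1.59-fold over adrenal medulla, under the limit of a call (adjusted p = 0.000379).

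The Rab3 GTPases mark synaptic and dense-core vesicles. They included 3 genes called higher in ganglion than in the adrenal medulla (7.5% of all genes) and 1 without a call. Rab3c read 14.53, 14.94, 15.03 and 14.70 in adrenal medulla, 13.53, 12.87 and 13.10 in the carotid body and 15.72, 15.45, 15.27 and 15.70 in the ganglion. The adrenal medulla and ganglion arrays were separate but close (1.66-fold, adjusted p = 0.00489, not a call), and carotid body was below both, 3.1-fold under adrenal medulla and 5.16-fold under ganglion (adjusted p = 4.42e-05 and 3.2e-06). Rab3b averaged 11.80 ± 0.28, 10.47 ± 0.63 and 13.11 ± 0.30 in adrenal medulla, carotid body and ganglion, again lowest in carotid body, with ganglion 2.49-fold over adrenal medulla (adjusted p = 0.00181). This Rab3b call ended under repeated quantile normalization (-0.99). Rab3a averaged 6.99 ± 0.23, 7.14 ± 0.35 and 8.49 ± 0.30, and Rab3d 7.65 ± 0.13, 7.87 ± 0.41 and 10.38 ± 0.29. Adrenal medulla and carotid body overlapped in Rab3a and Rab3d, and ganglion exceeded adrenal medulla 2.82-fold and 6.64-fold (adjusted p = 7.79e-05 and 5.72e-07).

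The Rab effectors of the set differed in direction. Rph3a (rabphilin), which binds Rab3 on vesicles, averaged 8.41 ± 0.24 in adrenal medulla, 7.66 ± 0.71 in the carotid body and 10.73 ± 0.33 in the ganglion, 5.01-fold higher in ganglion than in the adrenal medulla (adjusted p = 5.05e-05). Rph3al (Noc2), a rabphilin relative of endocrine cells, averaged 7.10 ± 0.18, 6.24 ± 0.15 and 6.78 ± 0.12. Its highest mean was that of adrenal medulla, 1.25-fold over ganglion and 1.81-fold over carotid body, which is under the limit of a call (adjusted p = 0.0379 and 0.000207).

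Of the 8 priming and active zone genes, 4 were called higher in ganglion than in the adrenal medulla (7.5% of all genes) and 4 had no call. Unc13a (Munc13-1) and Unc13b (Munc13-2), which ready vesicles for fusion, differed in their calls. The difference between their differences was not tested. Unc13a read 7.49, 8.02, 8.15 and 7.83 in adrenal medulla, 8.15, 7.14 and 7.41 in the carotid body and 9.46, 9.32, 9.56 and 9.81 in the ganglion. Ganglion was above the overlapping ranges of the other tissues, 3.17-fold over adrenal medulla (adjusted p = 0.000103). Unc13b read 7.68, 7.96, 7.96 and 7.68, then 8.56, 8.04 and 8.09, then 7.96, 7.96, 8.16 and 7.94. Its carotid body arrays were all above the adrenal medulla arrays and overlapped ganglion, and no comparison gave a call (adjusted p = 0.0421 against adrenal medulla, with a difference of 0.41).

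The CAPS proteins, which prime dense-core vesicles, also differed in their calls. Cadps read 10.66, 11.09, 10.85 and 10.50 in adrenal medulla, 11.27, 9.02 and 9.92 in the carotid body and 14.11, 13.57, 13.78 and 14.34 in the ganglion. Ganglion was above every other array by a wide margin, 9.02-fold over adrenal medulla (log2 -3.17, SE 0.39, adjusted p = 6.73e-05). Cadps2 was near the bound, at 6.08 ± 0.06, 6.02 ± 0.04 and 6.12 ± 0.05, with no call. The difference between the Cadps and Cadps2 differences was not tested. Rims1 and Rims2, scaffolds that bind Rab3 at the release site, averaged 5.49 ± 0.04 and 8.68 ± 0.14 in adrenal medulla, 5.91 ± 0.05 and 8.54 ± 0.14 in carotid body, and 6.49 ± 0.14 and 8.50 ± 0.12 in ganglion. Rims1 was called at the 2-fold limit between ganglion and adrenal medulla (2-fold, adjusted p = 1.44e-06) and lost the call without adrenal medulla replicate 2 (-0.998) or 3 (-0.99) or without ganglion replicate 1 (-0.98) or 4 (-0.96), and under median centring, repeated quantile normalization and array weights (-0.92, -0.92 and -0.98). The 3 tissues of Rims2 overlapped.

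The large scaffolds Pclo (piccolo) and Bsn (bassoon) organise the presynaptic active zone. Pclo read 11.85, 12.25, 12.47 and 12.41 in adrenal medulla, 10.49, 8.81 and 9.14 in the carotid body and 11.15, 11.60, 11.64 and 11.19 in the ganglion. Every adrenal medulla array was above every ganglion array, and every carotid body array was below both. Adrenal medulla and ganglion differed by 0.84 (SE 0.31, adjusted p = 0.0607, no call, but 1.19 and called under repeated quantile normalization), while carotid body was 6.78-fold under adrenal medulla and 3.78-fold under ganglion (adjusted p = 0.000109 and 0.00107). Bsn averaged 7.08 ± 0.07, 6.90 ± 0.36 and 8.26 ± 0.19, 2.27-fold higher in ganglion than in the adrenal medulla (adjusted p = 7.19e-05), with adrenal medulla and carotid body overlapping.

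**Figure D3:**
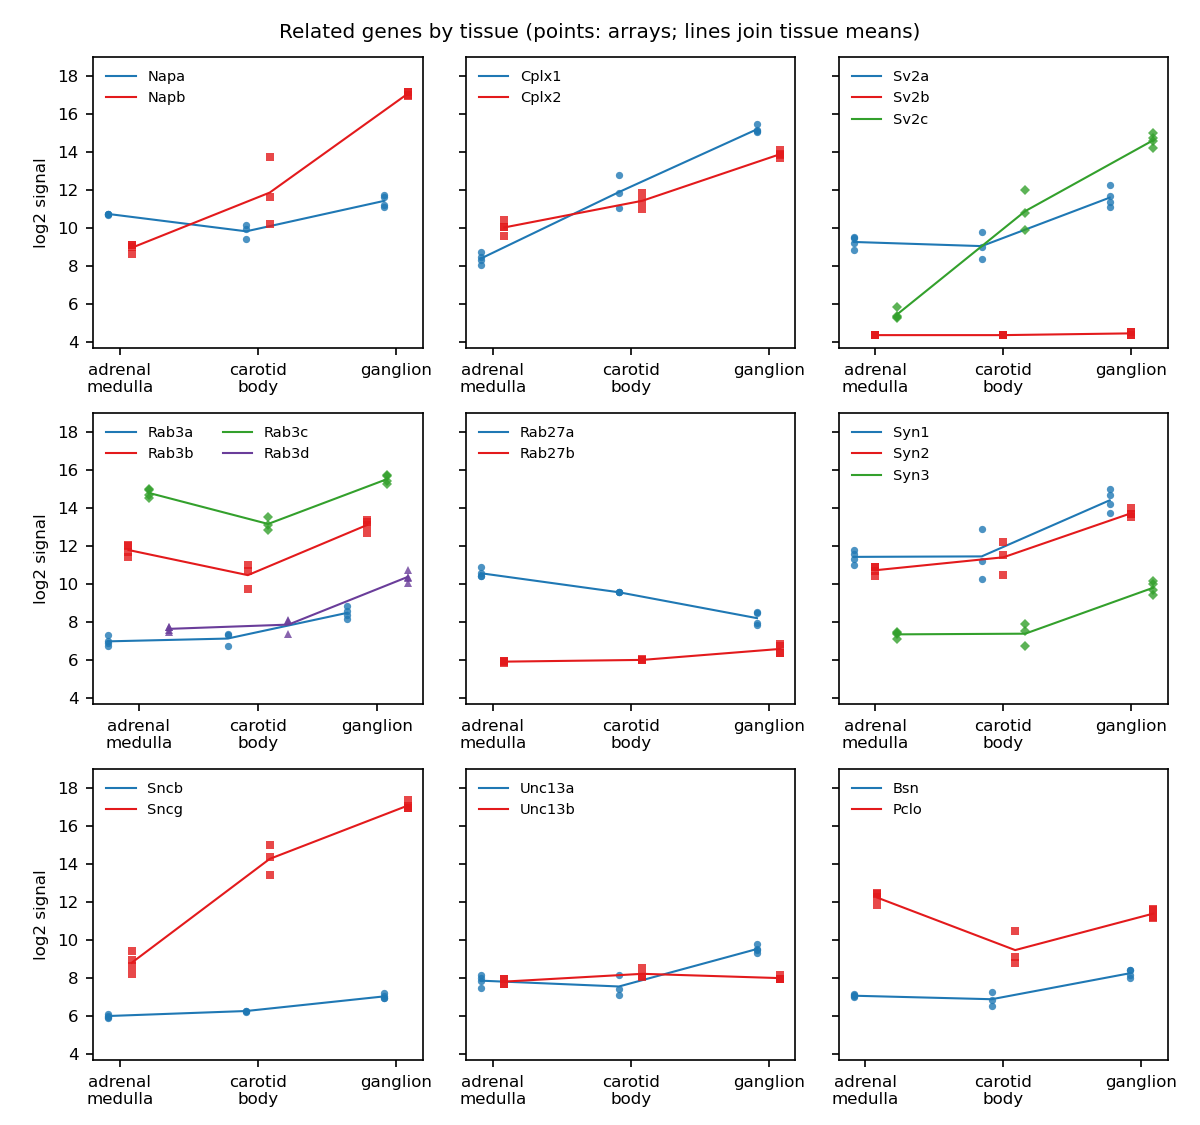
Log2 signal (vertical axis) of related genes in adrenal medulla (4 arrays), carotid body (3 arrays) and ganglion (4 arrays), 1 panel per family, with points for arrays and lines joining the tissue means. Napb, Cplx1, Sv2c and Sncg climb steeply towards ganglion, their relatives Napa and Sncb much less, Rab27a descends, and Rab3b, Rab3c and Pclo are lowest in carotid body. Heights of different genes cannot be compared, because their probes differ.

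Carotid body was compared with each of the other tissues, and both comparisons use the same 3 carotid body arrays. Against ganglion, 30 of the 42 genes were called lower (71.4%, against 8.28% of all genes) and 1, Rab27a, higher (5.61% of all genes), with a median difference of -2.001 against -0.02 over all genes. Against adrenal medulla, 8 genes were called higher (19%, against 6.06% of all genes) and 6 lower (14.3%, against 4.95% of all genes), with a median of 0.01 against 0.05. Among the genes above the bound in any tissue, the shares called were 10.3% higher and 8.43% lower against adrenal medulla and 9.55% higher and 14.1% lower against ganglion.

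The 8 genes called higher in carotid body than in the adrenal medulla are given with both differences side by side, and each was called lower than in ganglion. They were Sncg (5.46 against adrenal medulla and -2.80 against ganglion), Sv2c (5.43 and -3.73), Cplx1 (3.49 and -3.30), Napb (2.90 and -5.20), Syt11 (1.40 and -2.56), Cplx2 (1.40 and -2.45), Syngr3 (1.23 and -3.83) and Syt1 (1.14 and -1.99). The adjusted p against adrenal medulla ran from 9.3e-07 in Sncg to 0.0235 in Syngr3. The sympathetic neuron markers lay in the same order of tissues. Of these, 6 of 9 were called higher in carotid body than in the adrenal medulla (6.06% of all genes). All 9 were called lower than in ganglion (8.28% of all genes). Some of the calls of the 8 genes rested on single arrays or on the scaling. Without carotid body replicate 1, Syt1 (0.76) and Syngr3 (0.78) were no longer called against adrenal medulla, and Syngr3 also lost its call without adrenal medulla replicate 2 (adjusted p = 0.0513) or 4 (adjusted p = 0.0624). In a fit of these tissues alone Syt1 (adjusted p = 0.0543) and Syngr3 (adjusted p = 0.0515) lost the call, and Syt1 also lost it under median centring (0.99) and repeated quantile normalization (0.84, adjusted p = 0.159). The Napb excess over adrenal medulla was 7.48-fold with all arrays, 3.93-fold without carotid body replicate 1 and 13.2-fold without replicate 2, and its deficit to ganglion was 36.7-fold, 69.8-fold and 20.9-fold in the same order.

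The genes called lower in carotid body than in both other tissues were Syt5, Rab3b, Rab3c and Pclo. Their differences from adrenal medulla were -1.41, -1.32, -1.63 and -2.76 (adjusted p = 0.0108, 0.00366, 4.42e-05 and 0.000109) and from ganglion -3.60, -2.64, -2.37 and -1.92. In Syt5, carotid body replicate 1 (8.73 to 10.45 over the 3 arrays) overlapped the adrenal medulla range of 10.32 to 11.26. The Rab3b call against adrenal medulla ended without carotid body replicate 2 (-0.97). Rab27a (log2 -1.001, adjusted p = 0.00137) lay at the 2-fold limit against adrenal medulla and lost its call without adrenal medulla replicate 3 (-0.90), in the fit blocked on replicate number (-0.97) and under repeated quantile normalization (-0.94). The chromaffin and granule markers were also lower in carotid body than in the adrenal medulla, 8 of 8 by call, and their part in these differences was not tested.

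A further 18 genes were called lower in carotid body than in ganglion with no call against adrenal medulla. They were Snap25, Stx1a, Vamp1, Napa, Nsf, Syt4, Doc2b, Sv2a, Syngr1, Syn1, Syn2, Syn3, Rab3a, Rab3d, Rph3a, Unc13a, Cadps and Bsn. The largest of these differences from ganglion were in Cadps (-3.88, SE 0.42) and Syt4 (-3.61, SE 0.39) and the smallest in Rab3a (-1.35, SE 0.20). Without carotid body replicate 1, Cadps, Rph3a and Napa became called lower than in the adrenal medulla (-1.30, -1.14 and -1.07), Napa also under median centring (-1.06), and without replicate 2 Syn2 became called higher (1.14). For Syn1 the excess of ganglion over carotid body was 7.72-fold with all arrays, 12.8-fold without carotid body replicate 1 and 5.07-fold without replicate 2, and for Cadps it was 14.7-fold and, without replicate 1, 22.3-fold. The remaining 10 genes, Vamp2, Sv2b, Syp, Sncb, Rab27b, Rph3al, Rims1, Rims2, Unc13b and Cadps2, had no carotid body call in either comparison, though Rph3al was called lower than in the adrenal medulla under median centring (-1.01). The carotid body mean lay between those of the other tissues for 22 of the 42 genes, below both for 18 and above both for Unc13b, and in Sv2b, under the bound, it equalled that of adrenal medulla.

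The 3 carotid body arrays were spread in a common order. Replicate 1 was highest, replicate 3 in the middle and replicate 2 lowest in 32 of the 42 genes (76.2%), an order found in 14.4% of all genes and in 20.8% of the genes above the bound in any tissue. Replicate 1 alone was highest in 36 genes and replicate 2 alone lowest in 35. Over all 30142 genes these counts were 7352 and 7748, and over the 17648 genes above the bound in any tissue 5774 and 5874. The median of replicate 1 minus replicate 2 was 0.83 over the set, -0.06 over all genes and 1.58 over the 9 neuron markers, of which 8 had the same order. The neuron markers averaged 11.9, 10.1 and 11.1 on carotid body replicates 1, 2 and 3, and the chromaffin and granule markers 13.1, 12.2 and 12.6. The fibroblast markers averaged 13.8, 13.8 and 14.0 and the glial markers 11.7, 11.3 and 11.3. Replicate 1 was lowest in the mast cell markers (8.59, 9.52 and 9.56) and the macrophage markers (8.53, 9.10 and 9.09). The smooth muscle and pericyte markers averaged 13.6, 13.6 and 13.2 and the endothelial markers 11.15, 10.96 and 10.97.

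Genes of the set with a larger ganglion excess over adrenal medulla tended to lie higher on carotid body replicate 1 relative to replicate 2. The signed value of replicate 1 minus replicate 2 was correlated with the ganglion minus adrenal medulla difference. Across the 42 genes Pearson's r was 0.714 and Spearman's rho 0.772, against 0.245 and 0.23 across the 17648 genes above the bound in any tissue. These are descriptions across genes of the same arrays, which share their RNA and are not independent replicates. Napb (3.48), Syn1 (2.67), Cadps (2.25) and Sv2c (2.11) were furthest apart. Pclo, which had no ganglion excess, was apart by 1.68, and Rab27a did not differ between the 2 arrays. What differed between the pools was not tested, beyond the marker values given.

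**Figure D4:**
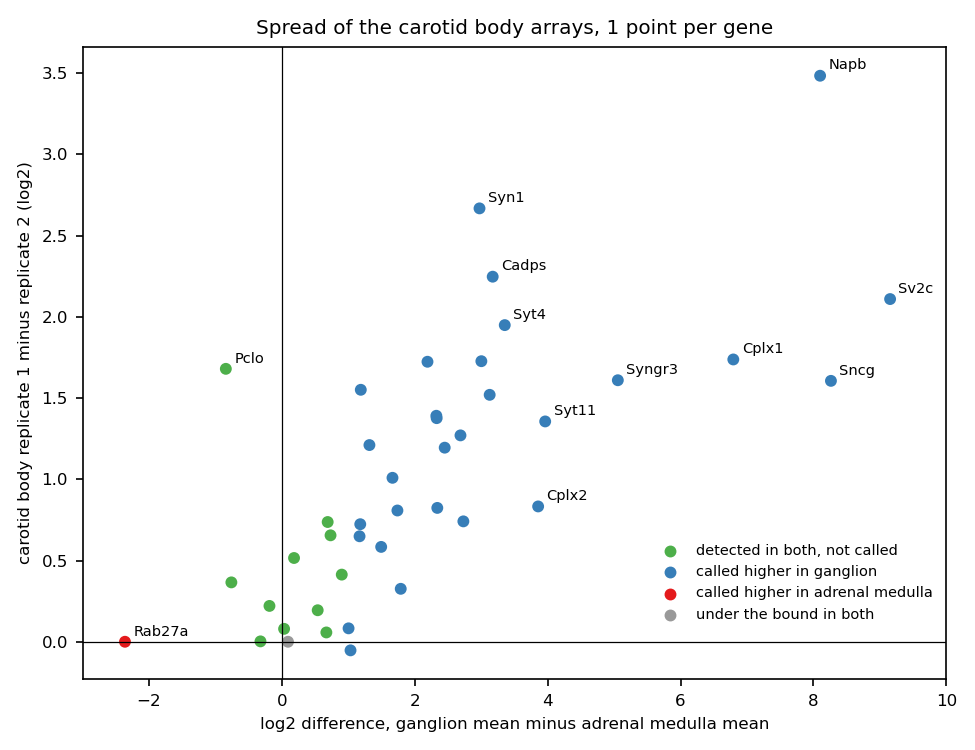
Carotid body replicate 1 minus replicate 2 (vertical axis, log2) against the ganglion minus adrenal medulla difference of tissue means (horizontal axis, log2), 1 point per gene for the 42 genes, coloured by the call between ganglion and adrenal medulla. Nearly all points lie above 0 on the vertical axis, Napb highest at 3.48, and points further to the right tend to lie higher (Spearman's rho 0.772).

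The rest of the pathway was read from 8 lists of related genes, of which some members were not measured by a cluster of their own. Among 20 other SNARE proteins, 4 were called higher in ganglion than in the adrenal medulla and 1 lower (7.5% and 5.72% of all genes). Vamp7, a SNARE of late endosomes and neurite growth, averaged 12.15 ± 0.19 in ganglion and 10.53 ± 0.21 in adrenal medulla (3.07-fold, adjusted p = 8.48e-06), and Stx2 and Snap47 were 2.98-fold and 2.15-fold higher in ganglion. Snap23, the widely expressed relative of Snap25, was the opposite case, at 10.01 ± 0.12 in adrenal medulla and 9.40 ± 0.00 in carotid body against 8.11 ± 0.47 in ganglion (3.73-fold and 2.46-fold higher, adjusted p = 1.44e-05 and 0.000506). Its carotid body arrays read 9.4072, 9.3993 and 9.4072, so a repeated value lies behind that small SD. None of the 20 was called by limma between carotid body and adrenal medulla. That is near the 6.06% higher and 4.95% lower of all genes for a list of 20. At an unadjusted limma p under 0.05, 3 were higher and 11 lower in carotid body, against 5851 and 5734 of all 30142 genes.

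Of 13 other SNARE regulators, 3 were called higher in ganglion than in the adrenal medulla (Napg 2.62-fold, Dnajc5 2.47-fold and Stxbp5l 2.15-fold) and 1 higher in adrenal medulla. The 3 and 1 genes were 23.1% and 7.69% of the list, against 7.5% and 5.72% of all genes. Napg encodes gamma-SNAP and Dnajc5 the vesicle chaperone cysteine string protein. The gene higher in adrenal medulla was Stxbp2 (Munc18-2), a syntaxin binder of secretory cells, at 8.40 ± 0.22 against 7.04 ± 0.30 (2.57-fold, adjusted p = 3.19e-05). Stxbp6 (amisyn) was called higher in carotid body than in both other tissues, at 8.41 ± 0.21 against 7.12 ± 0.09 in adrenal medulla and 7.12 ± 0.21 in ganglion (adjusted p = 2.38e-05 and 1.98e-05).

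Among 16 other synaptotagmins and Doc2 genes, 8 were called higher in ganglion than in the adrenal medulla and 1 lower. That is 50% and 6.25% of the list, against 7.5% and 5.72% of all genes. Against carotid body, 9 were called higher in ganglion (56.2%, against 8.28% of all genes). Syt2, a fast sensor related to Syt1, averaged 10.38 ± 0.55 in ganglion, 7.18 ± 0.51 in carotid body and 5.60 ± 0.11 in adrenal medulla (27.5-fold over adrenal medulla, adjusted p = 1.47e-07). Syt9 followed with 25.7-fold, then Esyt1 and Esyt3, which tether the endoplasmic reticulum to the plasma membrane, with 6.63-fold and 5.29-fold.

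Of 8 synaptotagmin-like and related effectors of Rab27, 2 were called by limma higher in adrenal medulla than in ganglion and none lower. The shares of all genes were 5.72% and 7.5%, and a list of 8 is too short to set 0 apart from the latter. At an unadjusted limma p under 0.05, 4 were higher and 1 lower, against 5548 and 7547 of all 30142 genes. Myrip, a Rab27 and myosin linker, lay the other way without a call, at 6.66 in adrenal medulla and 7.55 in ganglion. Sytl5 averaged 11.60 ± 0.44 in adrenal medulla, 6.58 ± 0.13 in the carotid body and 5.17 ± 0.20 in the ganglion, under the bound there (at least 71.1-fold over ganglion and 32.5-fold over carotid body, adjusted p = 2.37e-09 and 3.76e-08). Sytl4 (granuphilin), known from insulin granules, averaged 7.97 ± 0.28, 6.62 ± 0.00 and 5.58 ± 0.13 in the same tissues (5.21-fold over ganglion, adjusted p = 1e-07). The carotid body arrays of Sytl4 read 6.62, 6.625 and 6.625, again with a repeated value. Sytl5 and Sytl4 were also called higher in carotid body than in ganglion. The adrenal medulla arrays with the high Sytl5 values are those that carry the adrenal cortex markers, and the part of cortex RNA was not tested.

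The other 13 priming and active zone genes held calls both ways between adrenal medulla and ganglion, 2 higher and 4 lower. These were 15.4% and 30.8% of the list, against 5.72% and 7.5% of all genes. Baiap3, a Munc13 relative of dense-core vesicle traffic, averaged 8.52 ± 0.21 in adrenal medulla, 6.90 ± 0.02 in the carotid body and 5.77 ± 0.11 in the ganglion (6.69-fold, adjusted p = 6.95e-09), and Rims4 was 2.89-fold higher in adrenal medulla. Rimbp2 and Erc2, partners of RIM at the active zone, were 4.95-fold and 2.72-fold higher in ganglion. In this list 5 genes were called lower by limma in carotid body than in the adrenal medulla and none higher. At an unadjusted limma p under 0.05, 6 were lower and 2 higher, against 5734 and 5851 of all 30142 genes. No gene called higher is near the 6.06% of all genes for a list of 13. The 5 called lower were 38.5% of it, against 4.95% of all genes. Rims3 was the largest of these, at 6.80 ± 0.33 in carotid body against 9.68 ± 0.26 in adrenal medulla and 9.04 ± 0.11 in ganglion (adjusted p = 4.68e-07 and 3.2e-06).

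Of 17 other vesicle membrane genes, 4 were called higher in ganglion than in the adrenal medulla, with Scamp5 at 10.7-fold, Slc10a4 at 4.94-fold and Svop at 2.92-fold, and 3 higher in adrenal medulla, among them Syngr2, the widely expressed synaptogyrin (2.68-fold). The 4 and 3 genes were 23.5% and 17.6% of the list, against 7.5% and 5.72% of all genes. Vesicle endocytosis, which recovers membrane after release, gave 8 of 20 genes higher in ganglion and 2 higher in adrenal medulla. These were 40% and 10% of that list, against the same shares of all genes. Amph (amphiphysin) averaged 12.01 ± 0.38 in ganglion, 8.89 ± 0.68 in carotid body and 7.82 ± 0.23 in adrenal medulla (18.2-fold over adrenal medulla, adjusted p = 4.82e-07), followed by the uncoating factor Dnajc6 (auxilin, 9.18-fold) and the phosphatase Synj1 (4.4-fold). None of the 9 subunits of the exocyst, the tether of constitutive secretion, was called by limma between adrenal medulla and ganglion. That is near the 5.72% higher and 7.5% lower of all genes for a list of 9. At an unadjusted limma p under 0.05, 0 were higher and 5 lower in adrenal medulla, against 5548 and 7547 of all 30142 genes. Exoc3 alone was called lower in carotid body, 3.09-fold under adrenal medulla and 3.3-fold under ganglion. The shares of all genes called lower there were 4.95% and 8.28%.

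**Figure D5:**
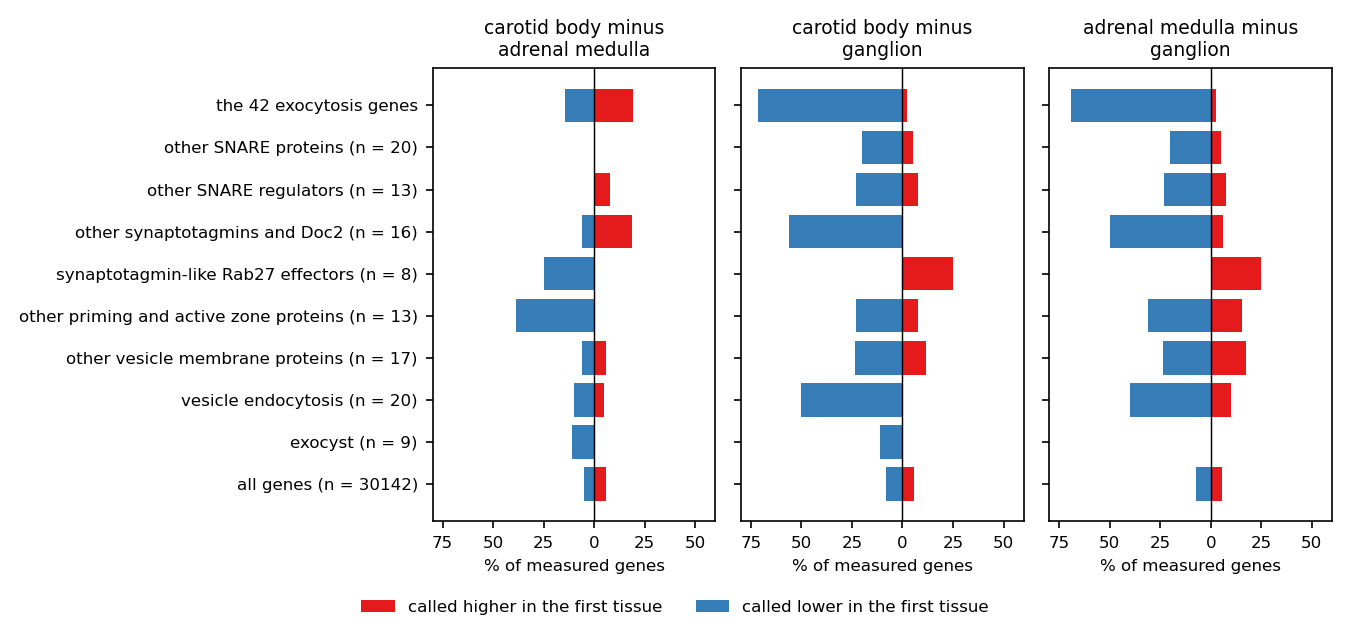
Share of measured genes (horizontal axis, percent) called higher (red, to the right) or lower (blue, to the left) in the first tissue of each comparison, for the 42 genes, the 8 related lists and all genes. The 42 genes reach 71.4% lower in carotid body than in ganglion and 69% lower in adrenal medulla than in ganglion, against 8.28% and 7.5% of all genes, and lists of 8 or 9 genes can lack a bar at such shares.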

How the data were processed

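Total RNA of 11 pooled samples was labelled with the WT PLUS kit and hybridised to Affymetrix mouse transcriptome arrays, per the labels' protocols. The authors deposited log2 signals. RMA and Affymetrix Expression Console are named, without versions, by the submitters' processing notes. The array maxima lie at 19.65 to 19.93, above the range of a 16-bit scan, so a further rescaling that no source names is possible and folds hold on the deposited scale. Of 65956 transcript clusters, 30604 carry 1 gene symbol. The brightest cluster of each gene was kept (30142 genes), and 825 symbols were updated through RefSeq.

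Tissue was the only term of a limma 3.58.1 fit (lmFit and eBayes, R 4.3.3) over 11 arrays and all genes, with Benjamini-Hochberg adjustment. The script was tested on simulated data. An "at least" fold sets arrays under the bound to it, or marks a tissue mean within 0.5 of the maximum. All 42 genes are named, and of each related list up to 4 called genes with the largest difference. The members and lists were chosen with earlier results of these data known. Alternatives were each array left out, a replicate block, other scalings, array weights, filters, bounds and moderation. Promoter sequences are RefSeq's on GRCm38.p6, the array's build is not given in the sources used here, and raw scans were not used here.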

Additional observations from a re-analysis of the deposited data

Results flagged for a closer look

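In 6 of 84 groups of 4 arrays, the extreme array stood apart from the others by Dixon's test at the 95% level, which chance gives in about 5% of groups. Snap25 was 16.639 on adrenal medulla replicate 4, against 17.218 to 17.296 on the other arrays of that tissue. Napa was 10.696 on adrenal medulla replicate 4, while the other adrenal medulla arrays shared the value 10.765. Nsf was 9.702 on adrenal medulla replicate 1, below 10.02 to 10.044. Doc2b was 11.27 on adrenal medulla replicate 3, above 10.841 to 10.864. Rph3a was 11.228 on ganglion replicate 4, above 10.516 to 10.605. Unc13b was 8.16 on ganglion replicate 3, above 7.938 to 7.964. The 3 carotid body arrays were too few for this test.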

How the results depend on the processing

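The 42 genes in 3 comparisons gave 75 calls and 51 differences without a call. Over 20 alternatives, 9 of the 75 lost the call under at least 1 of them, none reversed, and 6 of the 51 became called. Leaving out each array in turn gave 6 to 9 genes higher and 4 to 9 lower in carotid body than in the adrenal medulla, 30 lower in carotid body than in ganglion, 27 to 29 lower in adrenal medulla than in ganglion, and 0 to 1 of the ganglion alone (Sv2c, without adrenal medulla replicate 3). Repeated quantile normalization gave 2 genes higher in adrenal medulla than in ganglion, Pclo (1.19) beside Rab27a, so that 2 genes were of the adrenal-higher kind, and 25 lower in place of 29, since Nsf (-0.94), Sncb (-0.95), Rab3b (-0.99) and Rims1 (-0.92) lost the call. A bound at the 99th percentile (6.35 in adrenal medulla) put 3 genes in ganglion alone (Sv2c, Sncb and Rims1), 2 under the bound in both (Sv2b and Cadps2) and 1, Rab27b, in neither kind. With no limit on the size of a difference, 4 genes were shared, 3 were adrenal-higher and, in a count added after the data were seen, 3 were called higher and 34 lower in adrenal medulla than in ganglion. With the replicate number as a block, carotid body minus adrenal medulla gave 8 genes higher and 5 lower (Rab27a, -0.97, lost the call), and the counts against ganglion were 1 and 30 for carotid body and 1 and 29 for adrenal medulla. Arrays of the same number had correlations of -0.173 to 0.252 in their deviations from the tissue means. Arrays of different numbers were not set beside them, so these values cannot show whether the numbers pair samples. The labels do not say that the numbers pair samples, so the main fit had no block. Over all genes, median centring turned the share of calls higher in carotid body than in the adrenal medulla from 55.1% to 44.5% and shifted the median difference by -0.152, and quantile normalization turned the share higher in adrenal medulla than in ganglion from 43.3% to 53.9% (a shift of 0.12) and that in carotid body over ganglion from 40.4% to 51.2%. The number of arrays and, for genes near the background bound, the signal limit what can be told.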

Other observations

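Repeated values were found in the deposited table for genes of the set. A single value recurred on 3 or more arrays in 5 of the 42 genes (Napa, Rab27a, Unc13b, Cadps2 and Sv2b), and 29 genes had 11 different values. Repeated values also occurred in genes of the related lists, among them Snap23, Sytl4 and Baiap3 on the carotid body arrays. The SD of such a gene does not measure the spread between pools in full.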
